A study of Mus musculus with 8 samples.

Results

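The subject is 9 amino acid transporter genes grouped as targets of the transcription factor ATF4, measured in growth plate cartilage of CreTW mice and Cre mice. The genes were Slc7a1, Slc7a3, Slc7a5, Slc7a11, Slc3a2, Slc1a4, Slc1a5, Slc38a2 and Slc6a9. A probe was taken for a gene if its name in the scanner files was a RefSeq transcript of that gene, which gave 11 probes, 1 for each of 7 genes and 2 each for Slc7a11 and Slc3a2. The array carried 22911 gene symbols in all, and 23106 features, of which 14128 had a symbol, were bright enough to test. Of the 9 transporters, 8 were among them, and Slc7a11 was not.

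RNA was taken from the femoral growth plate of littermates at 12 days of age, 4 Cre and 4 CreTW mice, and each of 8 arrays received 100 ng of it. The labels give the genotypes by these short names alone. As background, the mice known under them carry a Cre recombinase directed to cartilage, and the CreTW mice in addition express a mutant form of Twinkle, the helicase of mitochondrial DNA. Twnk itself differed by -0.10 ± 0.21 (SE) on the log2 scale, with an adjusted p of 0.89 in limma. Whether its probe reads the transgene is not known here, so that value checks no label.

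Amino acids cross the cell membrane on carrier proteins that each take a group of related amino acids. Cells that run short of amino acids, or whose mitochondria fail, phosphorylate the translation factor eIF2 alpha, which slows most protein synthesis but favours translation of ATF4. This is the integrated stress response. ATF4 pairs with proteins of the C/EBP family on a composite DNA element and raises transcription of carriers, of enzymes that make amino acids, and of other stress genes. Chondrocytes of the growth plate secrete much collagen and proteoglycan and so draw heavily on amino acid supply.

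The letters of that composite element, TGATGNAA, were searched for on both strands of RefSeq promoter windows (GRCm38.p6) that run from 250 bases before to 50 bases after a gene's start. The reverse strand reads TTNCATCA, and no other motif was searched. Of 32851 windows of 300 bases, 3.97% held a match and 0.07% held 2 or more. Among the transporters, 6 had a window (9 windows), and 2 of these 6, Slc7a11 and Slc1a4, held a match. Slc7a3, Slc7a5 and Slc1a5 had no window in the table. Over all genes with a window, 4.51% held a match. The Slc7a11 and Slc1a4 stretches are shown because they hold the matches, and that of Asns, the asparagine synthetase described further on, because it is a much studied ATF4 target that passed the test here. Of the 12 genes of the lists below that passed, 11 had a window and 3 of these held a match (Asns, Chac1 and Trib3). Capitals mark the matches. All 3 genes lie on the minus strand, at chr3:50443614-50443713 for Slc7a11, chr11:20332710-20332813 for Slc1a4 and chr6:7693210-7693309 for Asns, and each sequence is written 5′ to 3′ in the direction of the gene.
Slc7a11: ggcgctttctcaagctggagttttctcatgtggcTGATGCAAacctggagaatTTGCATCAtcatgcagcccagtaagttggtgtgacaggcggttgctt
Slc1a4: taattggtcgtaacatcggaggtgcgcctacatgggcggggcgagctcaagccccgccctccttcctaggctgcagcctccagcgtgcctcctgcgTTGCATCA
Asns: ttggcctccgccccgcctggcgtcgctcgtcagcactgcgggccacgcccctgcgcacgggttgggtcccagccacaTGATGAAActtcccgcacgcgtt
Counted from the gene's start, Slc7a11 held 2 matches, at -66 to -59 and, on the opposite strand, at -47 to -40. The Slc1a4 match spans the start itself, at -4 to 4, and that of Asns lies at -23 to -16. A match is a description of the letters in a window and shows no binding. Of these 2 transporters, Slc7a11 was too dim to test and Slc1a4 did not pass the test, as described below.

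Slc7a3 rose, and none of the other 7 tested transporters passed the test. It encodes a carrier for the cationic amino acids arginine, lysine and ornithine. Values are given as log2 of the processed signal minus the array's 75th percentile, so that 0 is the 75th percentile of that array. In the Cre samples Slc7a3 read -2.52, -1.66, -1.63 and -1.34. In the CreTW samples it read 1.23, 1.28, 1.13 and 1.099. All 4 CreTW samples lay far above all 4 Cre samples and close to one another, whereas the Cre samples spread widely, with replicate 1 the lowest. The group means were -1.79 ± 0.51 (SD, n = 4) and 1.19 ± 0.09 (SD, n = 4). The probe was well above background on all 8 arrays, at 27.6 to 64.4 scanner units in Cre and 353 to 438 in CreTW. The log2 difference was 2.97 ± 0.23 (SE), which is 7.85-fold, with a 95% interval of 5.48 to 11.3 and an adjusted p of 0.00229 (limma, Benjamini-Hochberg over all features). The size depends on the background correction, and under normexp the log2 difference was 1.87, still called. By size of rise it stood at rank 33, and by p at rank 6, of the 23106 features. The slide has 2 rows with 2 arrays of each genotype, and within them the log2 difference was 3.35 and 2.60. In the tissue as a whole, more Slc7a3 RNA per cell and more cells that express it cannot be told apart, and the same holds for every gene below.

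Slc7a1 encodes the widely expressed cationic amino acid carrier, related to Slc7a3 and with much the same substrates. It read 3.82, 3.87, 3.70 and 4.18 in the Cre samples. In the CreTW samples it read 4.16, 4.25, 4.06 and 4.16. The groups overlapped, because Cre replicate 4 read above 3 of the 4 CreTW samples. The log2 difference was 0.26 ± 0.11 (SE), or 1.20-fold, with an adjusted p of 0.458 and a 95% interval of 0.00 to 0.52 on the log2 scale. A rise of the size seen for Slc7a3 lies far outside that interval.

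The changes of the 2 cationic carriers differed from each other. The Slc7a3 change exceeded the Slc7a1 change by 2.71 ± 0.23 (SE) on the log2 scale, a 6.54-fold difference in response. The per-array difference of these 2 genes was higher in all 4 CreTW samples than in any Cre sample, and the exact permutation test over 70 assignments gave p = 0.0286, the smallest it can give (two-sided, adjusted p = 0.0371 over 13 pairs of transporters). Where the arrays were compared within the 2 rows of the slide, the difference was 2.99 in row 1 and 2.43 in row 2. With the row as a block the size was the same, 2.71, and the exact permutation p over 36 assignments was 0.0556. That is the smallest p those 36 assignments allow, so this blocked test could not give a call at any size of difference. Under normexp the difference was 1.61.

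**Figure D1:**
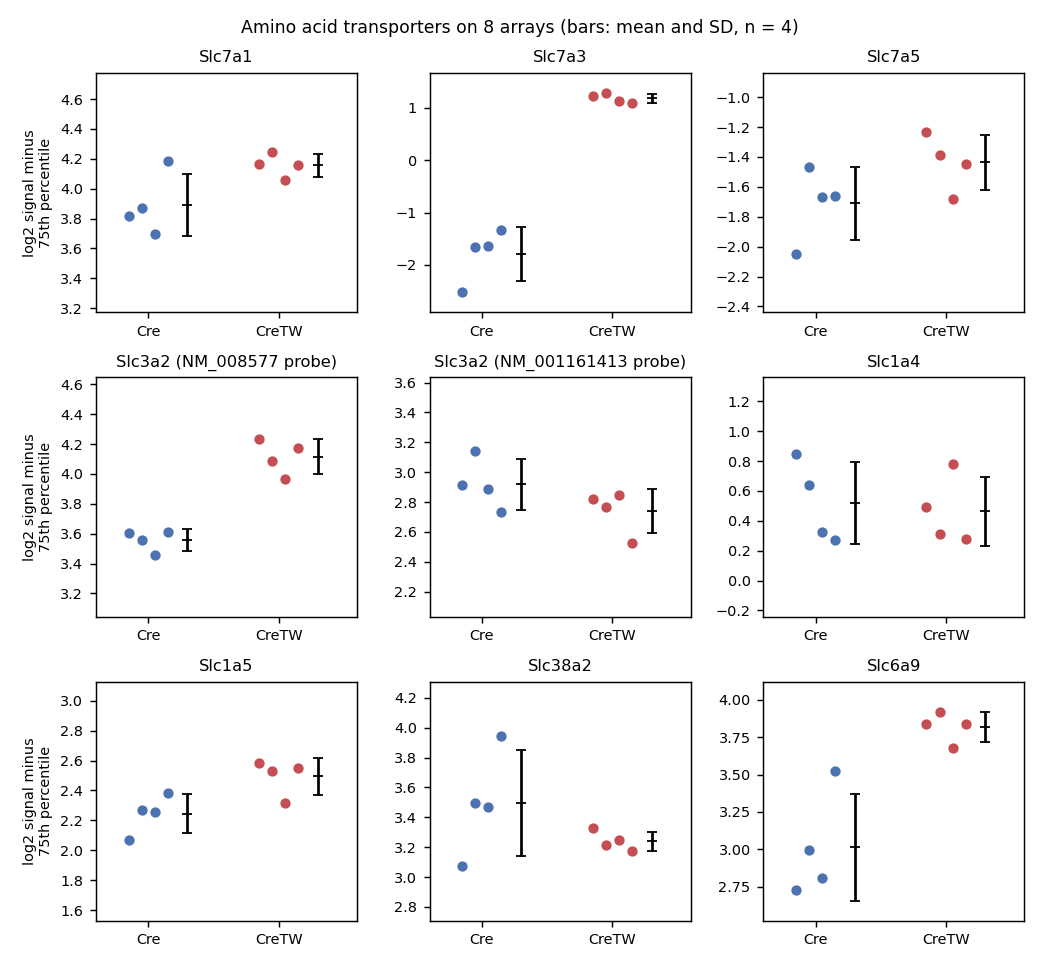
Log2 processed signal minus the array's 75th percentile for 8 transporters on 9 probes, with 1 point per array and bars for the mean and SD of 4 arrays. Slc7a3 separates the genotypes by the widest margin, Slc3a2 (by its brighter probe) and Slc6a9 separate them by less, and the other probes overlap; each panel has its own vertical range.

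Slc3a2 encodes the heavy chain that brings several light chains of the SLC7 family, among them Slc7a5 and Slc7a11, to the cell surface. Its 2 probes disagreed. The brighter probe, for transcript NM_008577, stands for the gene in the fit and read 3.60, 3.56, 3.45 and 3.61 in Cre. The same probe read 4.24, 4.08, 3.97 and 4.17 in CreTW. On this probe all CreTW samples lay above all Cre samples. Its log2 difference was 0.56 ± 0.09 (SE), 1.47-fold with a 95% interval of 1.28 to 1.69. The adjusted p of 0.0503 in limma just missed the threshold of 0.05. The other probe, for transcript NM_001161413, read 2.91, 3.14, 2.88 and 2.73 in Cre and 2.82, 2.77, 2.85 and 2.52 in CreTW. It overlapped between the groups and leaned the other way, by -0.18 on the log2 scale (adjusted p = 0.613 when it stood for the gene). With the mean of both probes the difference was 0.19 (adjusted p = 0.469). Which transcripts each probe reads beyond the one it is named for was not tested.

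The light chain Slc7a5 carries large neutral amino acids such as leucine in exchange for glutamine. It read -2.05, -1.47, -1.67 and -1.66 in Cre. In CreTW it read -1.23, -1.39, -1.68 and -1.45. The groups overlapped, because Cre replicates 2, 3 and 4 all lay inside the CreTW range. The log2 difference was 0.27 ± 0.14 (SE) with an adjusted p of 0.547.

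The other light chain, Slc7a11, exchanges cystine for glutamate and so supplies cysteine for glutathione. Its 2 probes were well above background on 1 of 8 arrays (a CreTW sample) and on 0 of 8 arrays. The first read -6.20 to -4.09 in Cre and -4.92 to -3.60 in CreTW, and the second -6.00 to -4.92 and -6.10 to -4.72. These are values near the background of the arrays, so no fold is given. The cystine carrier could therefore not be set against the cationic carriers at this signal.

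Among the carriers of small neutral amino acids, Slc6a9, the glycine carrier, had the largest difference. It read 2.72, 2.99, 2.81 and 3.52 in Cre. In CreTW it read 3.84, 3.92, 3.67 and 3.84. The groups did not overlap, although Cre replicate 4 came within reach of the lowest CreTW sample. The log2 difference was 0.81 ± 0.17 (SE), 1.75-fold with a 95% interval of 1.34 to 2.29, and the adjusted p was 0.152. Without Cre replicate 4 the difference was 0.98 and the adjusted p 0.0176 in limma. With all 8 arrays kept it also passed under normexp (0.0458) and array weights (0.0309).

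Slc1a5 exchanges neutral amino acids and is best known for glutamine. It read 2.07, 2.27, 2.26 and 2.38 in Cre. In CreTW it read 2.59, 2.53, 2.32 and 2.55. CreTW replicate 3 fell within the Cre range and the other 3 lay above it. The log2 difference was 0.25 ± 0.10 (SE), 1.19-fold, with an adjusted p of 0.432.

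Slc1a4, a related carrier for serine, alanine and cysteine, read 0.85, 0.64, 0.33 and 0.27 in Cre. In CreTW it read 0.49, 0.31, 0.78 and 0.28. The groups lay over each other, with a log2 difference of -0.06 ± 0.16 (SE) and an adjusted p of 0.926. The 95% interval, -0.43 to 0.32, leaves room for a modest change either way.

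Slc38a2, the sodium-coupled carrier of small neutral amino acids that is known to respond to amino acid shortage, read 3.07, 3.50, 3.47 and 3.94 in Cre. In CreTW it read 3.33, 3.21, 3.25 and 3.17. All CreTW samples lay inside the Cre range, which was wide. The log2 difference was -0.26 ± 0.17 (SE) with an adjusted p of 0.615.

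Counted together, 1 of the 8 tested transporters was called higher and 0 were called lower, beside 0.229% of all features called higher and 0.117% called lower. By unadjusted p under 0.05 in limma, 5 of the 8 passed, and 2480 of all 23106 features did. Groups did not overlap for 3 of the 8, all higher in CreTW (Slc7a3, Slc3a2 and Slc6a9), where 3.9% of all features were separated upward and 2.81% downward. The difference was above 0 for 6 of the 8, and its median was 0.27 on the log2 scale, against 48.4% of all features and a median of -0.01. In these counts Slc3a2 stands by its brighter probe. Its other probe overlapped between the groups and differed by -0.18 on the log2 scale. Without Cre replicate 4 the count of transporters called higher became 2, the second being Slc6a9.

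The cationic carriers as a pair did not respond as 1 group. Their mean log2 change was 1.62, against 0.26 over the other 6 tested transporters, a difference of 1.36, and 91.9% of the cationic mean came from Slc7a3. The neutral carriers alone averaged 0.20. Slc7a3 changed more than each of the other 7 tested transporters, by 2.17 ± 0.18 (SE) against Slc6a9, the least, and 3.23 ± 0.12 against Slc38a2, the most. Each of these 7 comparisons separated the samples by genotype and gave the smallest p the exact permutation test allows, 0.0286 (adjusted 0.0371).

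The Slc7a1 change lay within the span of the neutral carriers. It was below the Slc6a9 change by a difference of -0.54 ± 0.09 (SE) and below the Slc3a2 change by -0.29 ± 0.10, and above the Slc38a2 change by 0.52 ± 0.13. These 3 had p = 0.0286 in the exact permutation test (adjusted 0.0371 over all 13 pairs). That adjustment draws on the Slc7a3 pairs, which are at the same p. The 3 pairs were not run under other ways of processing the data. Against Slc7a5 the difference was -0.01 ± 0.16 and against Slc1a5 0.01 ± 0.09, with exact permutation p of 1 and 0.943. Against Slc1a4 it was 0.32 ± 0.25 (exact permutation p = 0.257, adjusted 0.304). In all, 10 of the 13 pairs were at the smallest p. Every pair holds Slc7a3 or Slc7a1, so these are not 10 separate results. The p for Slc3a2 rests on its brighter probe.

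**Figure D2:**
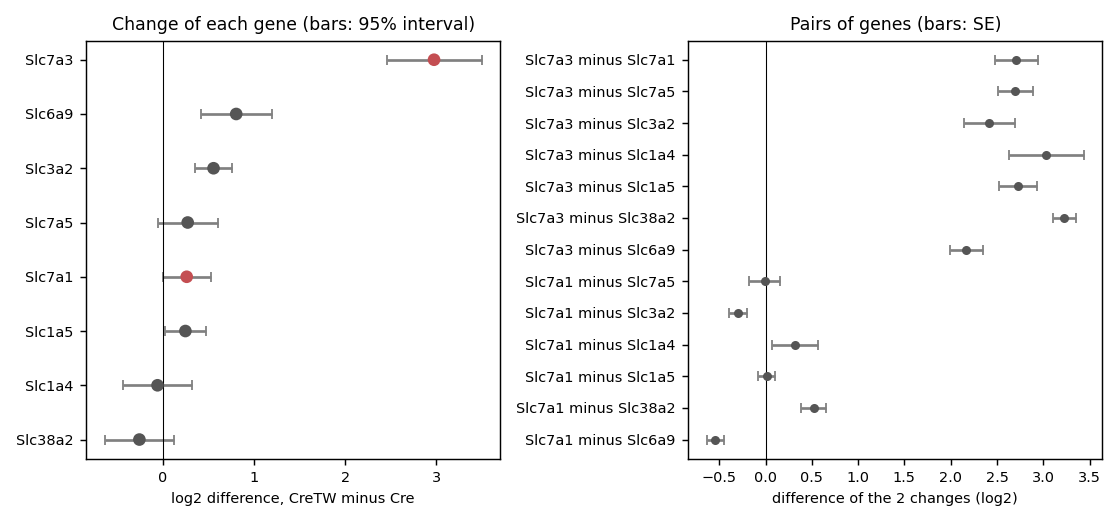
Left, the log2 difference CreTW minus Cre of each tested transporter with its 95% interval (red marks the cationic carriers); right, the difference between the changes of 2 genes with its SE, for 13 pairs. Slc7a3 stands apart at 2.97 while Slc7a1, at 0.26, lies among the neutral carriers.

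The remaining amino acid carriers of the cell surface were read beside the transporters above. Of 31 further genes of this kind, 20 were bright enough to test, 0 were called in either direction (0.229% and 0.117% of all features, so a count of 0 is near the background), and the lowest adjusted p in limma was 0.261. By unadjusted p under 0.05 in limma, 1 was higher and 3 were lower, and 2480 of all 23106 features passed in either direction. The difference was above 0 for 5 of the 20, against 48.4% of all features. The median was -0.12 on the log2 scale, against -0.01 over all features. Their differences ran from -1.10 to 0.26. The 2 brightest were Slc6a6, the taurine carrier, at -0.15 ± 0.11 (SE), and Slc38a4, a carrier of small neutral amino acids, at -0.21 ± 0.23.

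Some further carriers bear directly on the transporters above and were picked for that after their values were seen. Slc7a2, the remaining cationic carrier of the same type, differed by 0.08 ± 0.15 (SE) on the log2 scale (adjusted p = 0.877). Of the other light chains that pair with Slc3a2, Slc7a6 differed by -0.22 ± 0.10, Slc7a7 by -0.14 ± 0.14 and Slc7a8 by 0.01 ± 0.32. In 2 carriers every CreTW sample lay below every Cre sample. These were Slc43a1, a carrier of large neutral amino acids (-0.43 ± 0.12, adjusted p = 0.261), and Slc1a3, a glutamate carrier (-0.39 ± 0.16, adjusted p = 0.432), and 2.81% of all features were separated downward in this way.

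Carriers inside the cell were read in the same way. Of 22 lysosomal and mitochondrial amino acid carriers, 20 were tested and 0 called in either direction (0.229% and 0.117% of all features), so a count of 0 does not set them apart from the background. The lowest adjusted p in limma was 0.295. By unadjusted p under 0.05 in limma 1 was lower and 0 higher, and 2480 of all 23106 features passed in either direction. The difference was above 0 for 8 of the 20 (48.4% of all features) and the median was -0.07 on the log2 scale. The 2 brightest were Sfxn3, of the mitochondrial sideroflexins, at 0.25 ± 0.12 (SE), and Slc38a10 at -0.13 ± 0.10.

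Several enzymes that make or use the transported amino acids rose. Of 37 such genes 33 were tested, 7 were called higher and 0 lower, beside 0.229% and 0.117% of all features. The difference was above 0 for 20 of the 33 (48.4% of all features), with a median of 0.13 on the log2 scale. Asns, which makes asparagine, rose 2.40-fold, from 3.84 ± 0.23 (SD, n = 4) to 5.11 ± 0.14. Its samples read 3.66, 3.98, 3.64 and 4.09 in Cre and 5.32, 5.08, 5.01 and 5.02 in CreTW, with no overlap. Chac1, which degrades glutathione, rose 3.81-fold. Gpt2, the mitochondrial alanine aminotransferase, rose by 1.58 ± 0.14 (SE) on the log2 scale. The serine synthesis enzymes Phgdh, Psat1 and Psph rose 1.82-fold, 1.73-fold and 1.86-fold, and Mthfd2, a mitochondrial enzyme of folate metabolism fed by serine, 1.65-fold. Adjusted p in limma for these 7 lay between 0.00355 and 0.0336.

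Carriers and enzymes of the same amino acids can be set side by side. Slc1a4, a carrier of serine and alanine, differed by -0.06 on the log2 scale while Phgdh, Psat1 and Psph rose. Slc6a9, the carrier of glycine, differed by 0.81 with separated groups, and Shmt2, which forms glycine from serine in mitochondria, by 0.30 ± 0.14 (SE, adjusted p = 0.496). For arginine, the substrate that Slc7a3 and Slc7a1 share, no enzyme of its synthesis or use in the list passed the test. Ass1, which makes its precursor, differed by 0.27 ± 0.15 (SE) on the log2 scale, and Asl, which makes arginine itself, by -0.10 ± 0.13. Among enzymes further down, Gatm differed by 0.46 ± 0.58, Odc1 by 0.22 ± 0.10, Nos1 by -0.11 ± 0.19, Nos3 by -0.06 ± 0.17 and Agmat by -0.20 ± 0.21. The third nitric oxide synthase, Nos2, differed by -0.0043 ± 0.10. Arg1 and Arg2, which break arginine down, were too dim to test. Shmt2 and these arginine genes were picked after their values were seen.

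Among genes of the ATF4 arm of the stress response outside transport and synthesis, 21 of 22 were tested, 5 were called higher and 0 lower, beside 0.229% and 0.117% of all features. The difference was above 0 for 16 of the 21 (48.4% of all features), with a median of 0.13. Trib3, a pseudokinase that restrains ATF4 signalling, rose 7.55-fold (adjusted p = 0.00078, limma). Gdf15, a secreted stress factor, rose 6.04-fold, on a probe that was well above background on 7 of 8 arrays. Atf5, a transcription factor close to ATF4, rose 2.37-fold, Ddit3, the transcription factor CHOP, 2.03-fold, and Eif4ebp1, which restrains translation initiation, 1.60-fold. Atf4 itself differed by 0.27 ± 0.10 (SE) on the log2 scale with an adjusted p of 0.367. ATF4 is known to be controlled mainly at translation, which an RNA array does not read. The count of 5 fell to 3 without Cre replicate 3, without Cre replicate 4, and without CreTW replicate 1, 2 or 4.

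Sensing of amino acids ahead of mTORC1, the kinase complex that leucine and arginine activate, was the last list. Of 24 genes 23 were tested and 0 called in either direction, beside 0.229% and 0.117% of all features. By unadjusted p under 0.05 in limma 3 were higher and 0 lower, a share near that of all features (2480 of 23106). The difference was above 0 for 17 of the 23 (48.4% of all features), with a median of 0.08 on the log2 scale. The 2 brightest were Lamtor3 at 0.12 ± 0.08 (SE) and Lamtor4 at -0.08 ± 0.10, both subunits of the lysosomal scaffold. Sesn2, the leucine sensor and itself a known ATF4 target, had the lowest adjusted p, 0.059, at 0.55 ± 0.09. Rragd, a GTPase of this pathway, had the largest difference, 0.97 ± 0.21 with separated groups (adjusted p = 0.178). Both were picked after their values were seen. Without CreTW replicate 1 the count called in this list was 1.

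**Figure D3:**
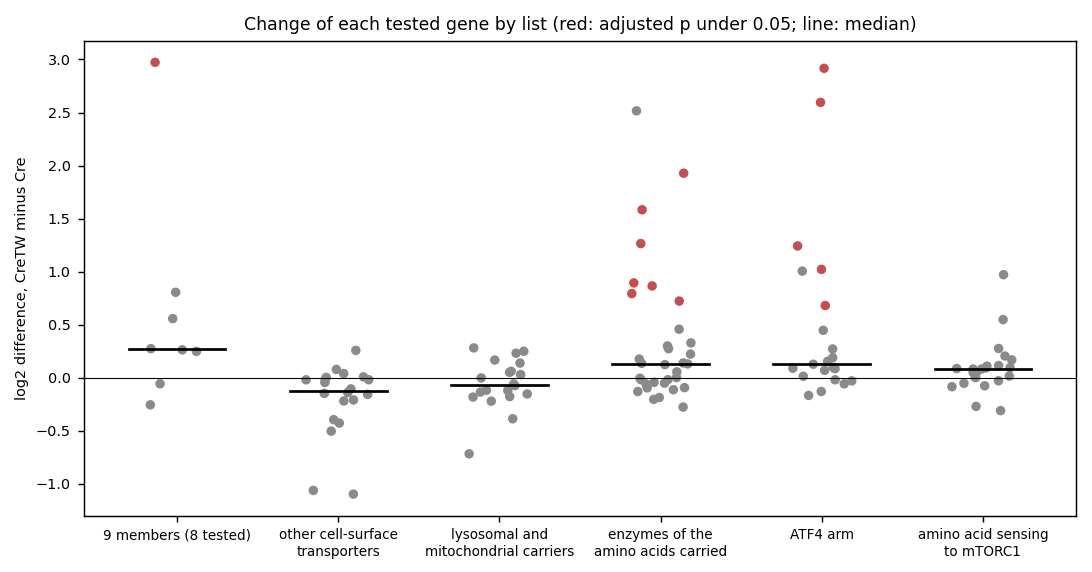
Log2 difference CreTW minus Cre of each tested gene in 6 lists, with red points for an adjusted p under 0.05 (limma) and a line at each list's median. Slc7a3 is the single red point among the transporters, the other surface carriers lie mostly below 0, and 7 enzymes and 5 ATF4 arm genes are red.

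The genes whose pattern over the 8 arrays was most like that of Slc7a3 were Trib3, Cth and Cyb5r2. Likeness was the root mean square difference of the 8 log2 values after centring each gene on its mean, 0.228 for Trib3, 0.438 for Cth and 0.456 for Cyb5r2. Such likeness over 8 arrays in 2 groups mainly reflects a difference of similar size. Trib3 read -0.14, 0.39, 0.18 and 0.42 in Cre and 3.27, 3.21, 3.31 and 2.73 in CreTW, so its lowest Cre sample was replicate 1, as for Slc7a3. Cth, which makes cysteine from cystathionine, read -5.00, -3.54, -3.07 and -2.63 in Cre, with 2 of 4 arrays well above background, and -0.94, -0.90, -1.50 and -0.83 in CreTW. Its adjusted p was 0.0879 in limma. Cyb5r2, a cytochrome b5 reductase, was not well above background in any of the 4 Cre samples but was in all 4 CreTW samples. Cyb5r2 read -4.58 to -3.42 in Cre and -0.89 to -0.70 in CreTW. It was bright enough to test through its CreTW arrays alone. Its Cre readings are too dim to set a size, so no fold or p is given. The likeness of Cyb5r2 to Slc7a3 rests in part on those dim readings.

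The tissue label was checked against cell type markers. Beside 0.229% of all features called higher and 0.117% lower, 0 of the 10 chondrocyte markers were called. All 10, among them Col2a1 and Acan, were tested. Their summed signal over the array's 75th percentile was 2270 to 3791 in Cre and 2198 to 2958 in CreTW. Skeletal muscle markers were brighter in most CreTW samples, although none passed the test. All 12 were above 0 in CreTW minus Cre, with a median log2 difference of 3.66 and 0 called. By unadjusted p under 0.05 in limma, 2480 of all 23106 features and 10 of these markers passed. Their sum was 29.8, 70.4, 87.9 and 58.0 in Cre and 41.1, 523, 307 and 189 in CreTW. CreTW replicate 1 lay inside the Cre range for this sum, and its Slc7a3 value was 1.23. Much of the Cre sum came from Tnni2, a marker that differed by 0.31 on the log2 scale. Tnnc2, troponin C of fast muscle, read 0.23, -1.62, 2.88 and -0.10 in Cre and 1.66, 6.73, 5.76 and 5.23 in CreTW. On Tnnc2, CreTW replicate 1 lay above 3 of the 4 Cre samples and below Cre replicate 3. With the muscle score as a covariate the Slc7a3 difference was 2.95 ± 0.37 (SE) and the adjusted p 0.0915, so the call was lost at nearly the same size. The enzymes called became 0 and the ATF4 arm genes called 1. Over all features the calls fell as well, from 53 to 4 higher and from 27 to 0 lower.

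Osteoclast markers leaned the other way, with 0 of the 7 tested above 0 and a median of -0.85. Their sum was 1044, 1170, 1013 and 417 in Cre and 386, 274, 1017 and 566 in CreTW, so the groups overlapped. Macrophage and neutrophil markers summed to 31.2 to 144 in Cre and 35.9 to 78.5 in CreTW, and endothelial markers to 18.1 to 28.3 and 17.6 to 30.9. Osteoblast markers summed to 576 to 739 and 565 to 723. Of 9 markers of perichondrium, tendon and fibroblasts, 8 were above 0, with a median of 0.24 and 0 called, and 3 were separated upward with unadjusted p under 0.05 in limma. These 3 were Dpt (3.56-fold), Thbs4 (2.83-fold) and Col3a1 (1.31-fold). Of all 23106 features, 3.9% were separated upward, and 2480 had an unadjusted p under 0.05 in limma in either direction. The share that met both was not counted. Dpt was dim in Cre, where only 3 of the 4 samples cleared background well, so its fold is uncertain. The summed signal of this list was 1327 to 1649 in Cre and 1418 to 1772 in CreTW. Of 8 erythroid markers 4 were tested, 0 of them above 0, with a median of -0.63 and 0 called (0.229% and 0.117% of all features). Their sums were 309 to 530 in Cre and 184 to 443 in CreTW. The part of any of these cells in the transporter values was not tested beyond the muscle covariate.

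**Figure D4:**
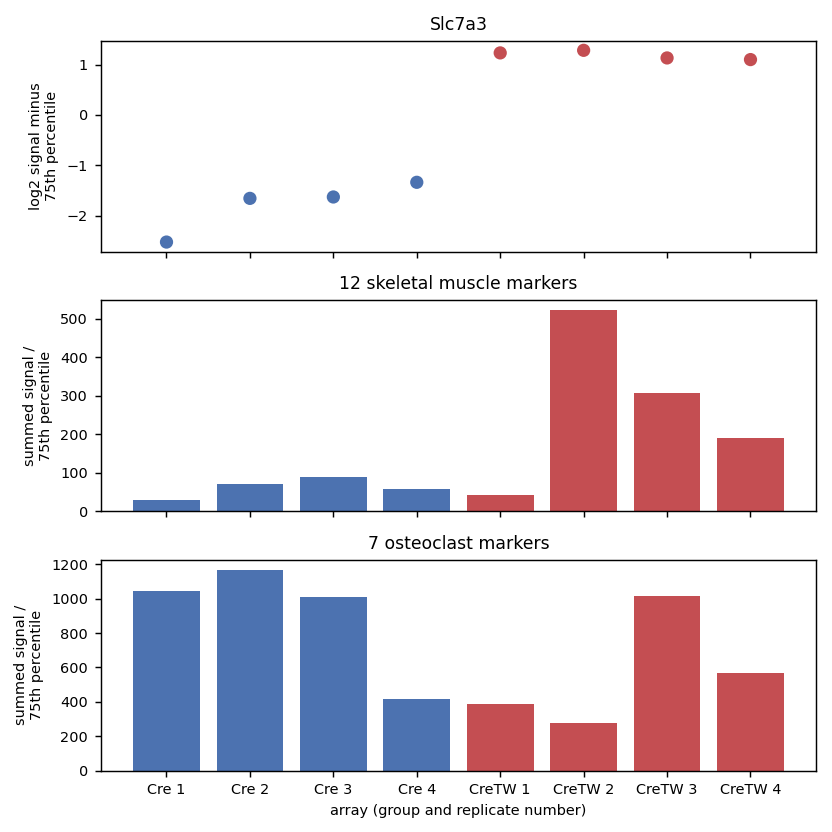
Top, Slc7a3 on each array as log2 processed signal minus the 75th percentile; middle and bottom, the summed signal of 12 skeletal muscle and 7 osteoclast markers over the 75th percentile, as bars from 0. CreTW replicate 1 has 41.1 for muscle, within the Cre range of 29.8 to 87.9, and 1.23 for Slc7a3. Much of the Cre sum is Tnni2. On Tnnc2 the same array reads 1.66, against 0.23, -1.62, 2.88 and -0.10 in Cre. The part of muscle RNA in the Slc7a3 values was not tested beyond the muscle covariate.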

How the data were processed

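Total RNA was read on 1-colour (Cy3) Agilent 8x60K arrays, 1 mouse per array, all on 1 slide. Per the file headers, the deposited intensity of each spot came from Agilent Feature Extraction 11.5.1.1, with background subtracted. The authors used GeneSpring 14.9, per the labels. Their deposited log2 table differed from the log2 processed signal by 1 constant for each array (r = 1 on all 8). This constant lay -0.0056 to -0.0030 from the log2 75th percentile. The table's genes were not centred, and its medians were -3.03 to -2.93. The table's direction needs no setting, as each array holds 1 sample. Probe positions were not used.

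Here the processed intensity of each non-control probe, without outlier spots, was taken to log2 minus the array's 75th percentile (144 to 187 scanner units). Of 56605 probes, 45.4% to 57.9% per array exceeded background well, and 0 were saturated. A probe had to be well above background on 4 or more of the 8 arrays. The probe with the highest mean stood for a gene. Names came from RefSeq transcripts (GRCm38.p6), with 32994 probes matching 1 symbol, 0 several and 23611 none. The number of arrays limits the precision.

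Genotypes were compared with limma 3.58.1 in R 4.3.3 on all 8 arrays (6 residual and 2.52 prior degrees of freedom), with Benjamini-Hochberg adjustment over all 23106 features and a threshold of 0.05. It called 53 higher and 27 lower. SE in the text is that of this fit, and for pairs of genes that of the per-array differences. Pairs with Slc7a11 could not be fitted, which left 13. Simulated data for this comparison had log2 changes put into 200 of the 23106 features in each of 5 runs. The fit recovered 24.8% of changes of 0.5, 70.4% of 1, 92.4% of 2 and 99.6% of 3, and 5.15% of its calls were false. Noise was drawn for each feature on its own, so variation shared between features was not simulated.

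The transporters, the gene lists and the markers were chosen with earlier results of these data known. Named were all 9 transporters, Twnk, the 3 genes most like Slc7a3, and from each list the genes that passed (the 6 largest where more did) or the 2 brightest where none did. Mthfd2, Atf4, single marker genes, and genes said in the text to be picked later, stand outside this rule and were chosen after their values were seen. Alternatives were the array median, quantile normalization, normexp (offset 50), the authors' table, no filter, well above background on all 8, probes averaged per gene, replicate number or slide row as a block, each slide row alone, trend and robust, array weights, the muscle score and leaving out each array. The other Slc3a2 probe was added after seeing the data. Normexp ran on the median signal, as the mean signal was not used here.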

Additional observations from a re-analysis of the deposited data

How the results depend on the processing

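Slc7a3 kept its direction under all 23 alternatives and its call under 20, with log2 differences from 1.87 (normexp) to 3.35. Leaving out single arrays gave 2.73 to 3.12 (adjusted p 0.000223 to 0.0158). Without a call were the muscle covariate (0.0915) and slide rows 1 and 2 alone (0.138 and 0.168). Slc3a2 passed under quantile normalization (adjusted p 0.016), normexp (0.0133), the filter on all 8 arrays (0.0306), trend and robust (0.00927) and array weights (0.0177), and Slc6a9 under normexp (0.0458), array weights (0.0309) and without Cre replicate 4 (0.0176). The other Slc3a2 probe reversed that gene to -0.18. Slc1a4 turned to 0.23 in row 2 alone and 0.055 with the muscle covariate, and ran from -0.16 to 0.053 as single arrays were left out. The cause was not tested.

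The transporters called higher, 1 in the report, were 2 under quantile normalization, the filter on all 8 arrays and trend and robust, 3 under normexp and array weights, 0 in each row alone and with the muscle covariate, and 1 to 2 as single arrays were left out. All features called higher, 53 in the report, were 16 without a filter, 35 with the slide row as a block, 84 with trend and robust, 90 with array weights, 4 with the muscle covariate, 0 in each row alone, and 23 to 55 without single arrays (32 without Cre replicate 2, 30 without Cre 3, 32 without CreTW 2, 34 without CreTW 3, 23 without CreTW 4). Features called lower, 27 in the report, were 11 without a filter and 0 in each row alone and with the muscle covariate. Enzymes called, 7 in the report, were 2 without a filter and 0 in each row alone and with the muscle covariate. ATF4 arm genes called, 5 in the report, were 3 without a filter and with the slide row as a block, 1 with the muscle covariate, 0 in each row alone and 3 to 4 without single arrays. The mTORC1 list, 0 in the report, had 1 call under quantile normalization, normexp, the filter on all 8 arrays, trend and robust and array weights, and 0 to 1 without single arrays. The other carrier lists and the transporters called lower stayed at 0.

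With the replicate number as a replicate block the features called were 9 higher and 3 lower, enzymes 0 and ATF4 arm genes 1, and Slc7a3 had an adjusted p of 0.0412. Same-numbered arrays, centred within each group, correlated at -0.01, -0.10, 0.31 and -0.03 for replicates 1 to 4. The highest correlation of each of these Cre arrays with a CreTW array of another number was 0.28, 0.05, -0.07 and 0.40. With so few arrays these values do not settle whether the numbers pair the samples. Under the replicate block the difference between the Slc7a3 and Slc7a1 changes, 2.71, had an exact permutation p of 0.125, the smallest 16 assignments allow. With the slide row as a block it was 2.71 with p = 0.0556 by the exact test, the smallest 36 assignments allow. Rows 1 and 2 alone gave 2.99 and 2.43 with an exact permutation p of 0.333, again the smallest possible. Without single arrays it was 2.49 to 2.83, and under normexp 1.61. The cationic mean minus the mean of the others, 1.36, was 0.83 under normexp. With 4 arrays a group, differences of 0.5 were mostly missed in the simulated data, over features of all spreads. That rate was not computed for features with a spread like that of the brighter Slc3a2 probe, whose SDs were 0.07 in Cre and 0.12 in CreTW. Probes near background, such as those of Slc7a11, gave no usable value.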
